A study of Mus musculus with 6 samples.

Results

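The genes described here are 10 members of the bone morphogenetic protein (BMP) arm of TGF-beta superfamily signalling: the ligands Bmp4, Bmp6 and Bmp7, the type I receptors Bmpr1a and Bmpr1b, the type II receptor Bmpr2, the signal transducers Smad1 and Smad5, and the inhibitors Smad6 and Bambi. They were taken by gene symbol from a table of 35510 genes, and all 10 were found in it. As a set they were chosen by pathway, but with the sponge-against-control fold changes of these same libraries known, so those fold changes count as values that chose them and are given as a description. Cells came from the cortex of wild-type newborn mice (postnatal day 0) of the outbred RjOrl:SWISS stock. Every brain had been electroporated in utero on embryonic day E15.5, with a control plasmid in 3 libraries and with a miR-17-5p sponge plasmid in 3 others. A sponge is a transcript with repeated binding sites that competes with natural targets for a microRNA. Each library came from about 100000 cells pooled from about 10 brains, and the column names mark the cells as sorted. The labels do not say which promoter drives the sponge, and nothing ties a library to a litter, so the spread between libraries is that of these pools.

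BMP ligands are secreted dimers that bring type I and type II serine/threonine kinase receptors together. The type II receptor then phosphorylates the type I receptor, which phosphorylates Smad1, Smad5 and Smad9, and these enter the nucleus with Smad4. In the developing forebrain BMP signalling is known for patterning the dorsal midline and for favouring astrocyte over neuron and oligodendrocyte fates. Bmpr2 is a described target of the miR-17 family.

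The guide sequence of this comparison is miR-17-5p, which pairs with messenger RNAs mainly through its seed, bases 2 to 8. The RefSeq table on GRCm38.p6 held 7 mature mouse microRNAs with the same seed, of which miR-17-5p (chromosome 14, 115043684 to 115043706, plus strand), its cluster partner miR-20a-5p (chromosome 14, 115044183 to 115044205, plus strand) and miR-93-5p (chromosome 5, 138165574 to 138165596, minus strand) are shown with the seed in capitals.
miR-17-5p: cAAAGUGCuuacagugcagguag
miR-20a-5p: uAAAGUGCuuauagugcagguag
miR-93-5p: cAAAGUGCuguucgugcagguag

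A perfect match to this seed is the 7-base word GCACTTT in a 3′ UTR, read on the transcript strand only. It was present in the longest annotated 3′ UTR of 4 of the 10 genes, namely Bmpr2, Smad5, Smad6 and Bambi, against 14.1% of the 15198 tested genes with a 3′ UTR of at least 50 bases. Among the 4513 tested genes with a 3′ UTR of at least 2000 bases the share was 29.5%. Bmp4, Bmp6 and Smad6 fall outside that class, with 3′ UTRs of 339, 1234 and 448 bases, and Smad6 has a match. The Bmpr2 UTR is 8529 bases long and held 2 matches, starting at its bases 201 and 3877. The others held 1 each, at base 778 of 4899 in Smad5, base 233 of 448 in Smad6 and base 60 of 4004 in Bambi. The 8-base match GCACTTTA, which adds an A opposite the first base of the microRNA, occurred in none of the 10 and in 4.34% of the tested genes. Windows of 27 bases around the matches of Bmpr2, the member named as a miR-17 target, and of both Smads are shown on GRCm38, with the match in capitals, as the places where pairing could occur.
Bmpr2, first match (chr1:59870671-59870697, plus strand): tgttttttaagttttGCACTTTtgttt
Bmpr2, second match (chr1:59874347-59874373, plus strand): ttatggtatcacactGCACTTTtactc
Smad5 (chr13:56738241-56738267, plus strand): taatcttttcattttGCACTTTtatgg
Smad6 (chr9:63953280-63953306, minus strand): agaaacaagaaagacGCACTTTggctt

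All 3 ligands, both type I receptors and Smad1 held no match to the full seed. A weaker 7-base form, CACTTTA, which pairs with bases 2 to 7 and has an A opposite the first base, occurred once in Bmpr1b and in no other member. A match is a sequence description and does not show that the microRNA binds there.

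Values are normalised counts, the deposited counts after scaling of each library by the authors, and depth, estimated from the whole multiples of each library's smallest nonzero value, lay between 115445910 and 138254412 per library. All 10 genes passed the filter on low values, a mean of at least 10 over the 6 libraries, and were fitted with the other tested genes, 22479 in all, by limma on log2(normalised count + 1). Fold changes are on that scale, sponge minus control. At a Benjamini-Hochberg adjusted p under 0.05 limma called 0 genes higher (0%) and 0 genes lower (0%), so none of the 10 genes was called. At an unadjusted p under 0.05 it held 356 genes as higher (1.58%) and 294 as lower (1.31%), among them 2 of the 10, Bmp7 and Bmpr1b, both higher. In 9 of 17 alternative settings this was 1 of the 10. Control library 1 stood apart: its correlation with the other libraries across genes was 0.942 to 0.954, where other pairs reached 0.986. Its deviation from them fell with transcript length over 15597 protein-coding genes (Spearman's rho −0.53; in the other libraries, compared with a mean that includes control 1, it was 0.20 to 0.32). Genes are not independent replicates, so this describes the libraries.

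Per kilobase of the longest annotated transcript, the 10 genes spanned a wide range of levels. Smad5, which carries the BMP signal to the nucleus, stood at the top with a mean over the 6 libraries of 5961 normalised counts per kilobase, above 93.7% of tested genes. The type I receptor Bmpr1a followed at 3619, then Smad1 at 2465, Bmpr2 at 1983, Bmpr1b at 756 and the ligand Bmp7 at 620.1 normalised counts per kilobase. The inhibitor Smad6 had 199, the ligand Bmp6 142 and the decoy receptor Bambi 135. Bmp4 was lowest with 13.8, above 8.97% of tested genes. Smad5 and Bmpr1a, Bmpr1a and Smad1, Bmpr2 and Bmpr1b, Bmp7 and Smad6, and Bambi and Bmp4 did not overlap in their ranges over the 6 libraries. The ranges of Smad1 and Bmpr2, Bmpr1b and Bmp7, and Smad6 and Bmp6 overlapped, although the first of each pair was higher in 6 of 6 libraries. For Smad1 over Bmpr2 this was 4 of 6 when lengths were taken over the union of all annotated exons. Bmp6 and Bambi could not be ordered, with Bmp6 higher in 4 of 6 libraries.

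**Figure D1:**
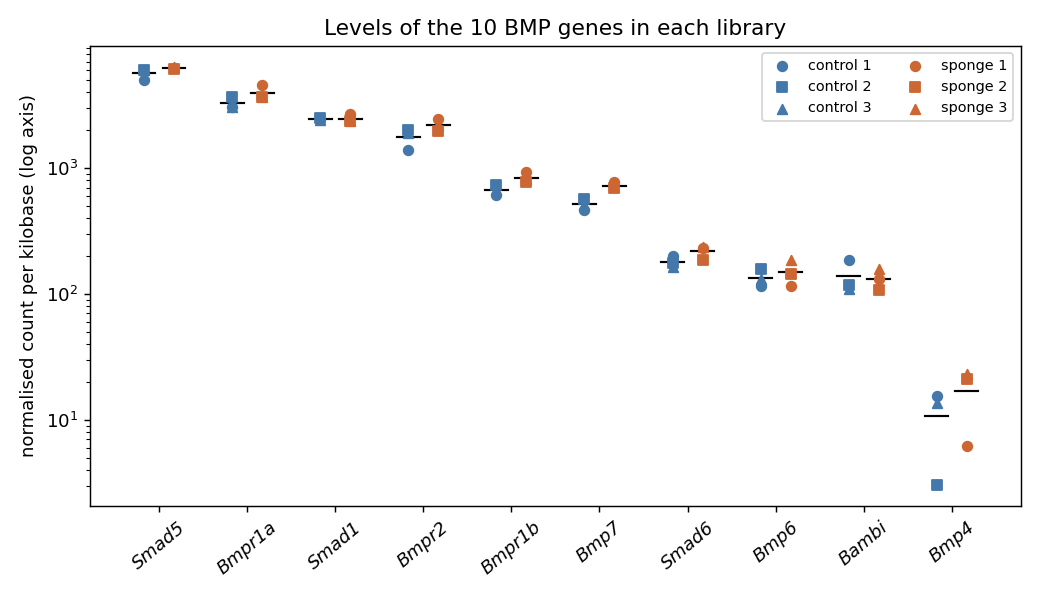
Normalised count per kilobase of the longest transcript (log axis) of the 10 genes in each library, ordered by mean level; points are libraries, blue for control and orange for sponge, and black bars are group means. Levels run from a mean of 13.8 for Bmp4 to 5961 for Smad5, and the sponge points of Bmp7, Bmpr1b and Smad5 lie above all control points.

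Among the ligands, Bmp7 was the most abundant per kilobase and the one whose groups did not overlap. Bmp7 is a secreted BMP of meninges, dorsal midline and glial cells (ENSMUSG00000008999, chromosome 2, 172868012 to 172940321, minus strand). Its normalised counts were 1702, 2101 and 1876 in control libraries 1 to 3, and 2823, 2556 and 2596 in sponge libraries 1 to 3. Every sponge library lay above every control library, and sponge 1 was the highest. The means were 1893 ± 199.95 in the control and 2658 ± 144 in the sponge libraries (SD, n = 3 each). On the log2 scale the fold change was 0.49 ± 0.14 (SE), with a 95% interval from 0.18 to 0.81. It was 0.42 without control library 1 and 0.49 after removal of each library's trend on transcript length. The authors' deposited table gave Bmp7 a log2 fold change of 0.4896 with a p of 0.0039 and an adjusted p of 0.9954.

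Bmp6, a ligand of the same subgroup as Bmp7 (chromosome 13, 38345107 to 38500302, plus strand), did not separate the groups. Its normalised counts were 417, 563 and 476 in the control libraries and 417, 518 and 668 in the sponge libraries. Control 1 and sponge 1 were the lowest and nearly equal, so the groups overlapped over most of their range. Its log2 fold change was 0.12 ± 0.24 (SE), with an interval from −0.43 to 0.67, and it turned to −0.05 without sponge library 3. Exons of Bmp6 overlap 224 bases of Txndc5 on the other strand, and the strand setting of the counting is not given in the sources used here.

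Bmp4, the ligand best known from dorsal midline patterning (chromosome 14, 46383520 to 46390669, minus strand), was the least abundant. It had 32.0, 6.31 and 28.3 normalised counts in control libraries 1 to 3 and 12.8, 43.8 and 47.7 in sponge libraries 1 to 3. Control 2 and sponge 1 were the lowest, so the groups overlapped. As whole multiples of each library's smallest nonzero value, which were not shown to be read counts, this is 6 to 54 per library. Bmp4 had a log2 fold change of 0.70 ± 0.79 (SE), with an interval from −1.15 to 2.54, the widest of the 10 genes. Leaving out control library 2 gave 0.000231, and leaving out sponge library 1 gave 1.28. Bmp4 also overlaps 89 bases of an opposite-strand gene, Gm15217.

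Bmp7 made up 77.7% to 78.2% of the summed level per kilobase of the 3 ligands in the control libraries. In the sponge libraries it made up 86.3%, 80.8% and 77.2%. The share was nearly constant among controls and varied among sponge libraries, where sponge 3 lay below all controls. The ratio of Bmp7 to Bmp6, whose longest transcripts measure 3670 and 3593 bases, was 3.84 ± 0.17 in the control and 5.09 ± 1.43 in the sponge libraries (SD, n = 3 each). The groups overlapped in this ratio, with 3.80 in sponge 3 and 6.63 in sponge 1.

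Both type I receptors had higher group means in the sponge libraries, Bmpr1b without overlap. Bmpr1a, the broadly expressed type I receptor also called ALK3 (ENSMUSG00000021796, chromosome 14, 34410734 to 34503341, minus strand), had normalised counts of 18306, 21799 and 18232 in the controls. In sponge libraries 1 to 3 it had 27244, 21966 and 21789. Sponge 1 stood well above all others, while control 2 and sponge libraries 2 and 3 lay within a narrow band. The means were 19445.5 ± 2038 and 23666.5 ± 3099.8 (SD, n = 3 each). Bmpr1a had a log2 fold change of 0.28 ± 0.14 (SE), with an interval from −0.05 to 0.61. It was 0.18 without sponge library 1 and 0.17 after the transcript length correction. Exons of Bmpr1a overlap 290 bases of the opposite-strand gene Gm17110.

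Bmpr1b, the second type I receptor (ALK6), is known from neural progenitors and astrocytes (chromosome 3, 141837136 to 142169425, minus strand). Its normalised counts were 3274, 3947 and 3557 in the control libraries and 4943, 4134 and 4414 in the sponge libraries. All 3 sponge values lay above all 3 control values, with control 2 and sponge 2 next to each other. For Bmpr1b the log2 fold change was 0.32 ± 0.13 (SE; means 3593 ± 338 and 4497 ± 411, SD, n = 3 each), with an interval from 0.02 to 0.63. It was 0.26 without control library 1 and 0.24 after the transcript length correction. In the authors' deposited table Bmpr1b had a log2 fold change of 0.3239 with an unadjusted p of 0.0558. The ratio of Bmpr1a to Bmpr1b per kilobase was 4.86 ± 0.23 in the control and 4.72 ± 0.26 in the sponge libraries (SD, n = 3 each), and the groups overlapped.

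Bmpr2, the type II receptor of BMP ligands (ENSMUSG00000067336, chromosome 1, 59763400 to 59879014, plus strand), has the longest transcript of the 10, 12899 bases. It is the member with a pair of seed matches. Normalised counts of Bmpr2 were 17811, 25922 and 24626 in control libraries 1 to 3 and 31645, 25206 and 28236 in sponge libraries 1 to 3. Control 1 was far below the rest, sponge 1 was the highest, and control 2 lay above sponge 2, so the groups overlapped. The means were 22786 ± 4357 and 28362 ± 3221 (SD, n = 3 each) and the log2 fold change was 0.33 ± 0.17 (SE), with an interval from −0.07 to 0.73. Without control library 1 it was 0.16 ± 0.10, and after the transcript length correction 0.05 ± 0.12 (SE). The deviation of control 1 from the other 5 libraries was −0.60 on the log2 scale for Bmpr2, the lowest of the 10 genes. The ratio of both type I receptors together to Bmpr2, per kilobase, was 2.27 ± 0.37 in the control and 2.19 ± 0.13 in the sponge libraries (SD, n = 3 each), with overlap.

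Bmpr2 was compared with 18001 other genes with a mean of at least 50, and predicted genes, Rik symbols and "-ps" symbols were passed over. Among the rest, the values of Slc35e1, Cyb5d2 and Tmem132b followed those of Bmpr2 most closely over the 6 libraries (Pearson's r of 0.999, 0.996 and 0.996). Like Bmpr2, each was lowest in control 1 and highest in sponge 1. Without control library 1, r was 0.995, 0.997 and 0.982. These values are a description over 6 libraries that share their processing.

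**Figure D2:**
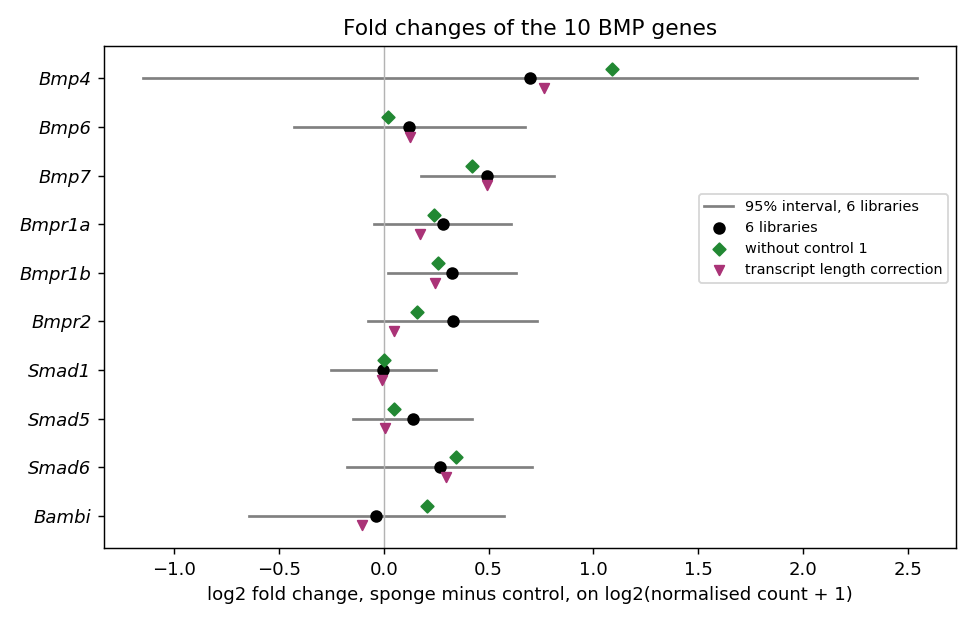
Log2 fold change of each of the 10 genes, sponge minus control, on log2(normalised count + 1): black points with grey 95% intervals for the 6 libraries, green diamonds without control library 1, purple triangles after the transcript length correction. Among the fits shown, Bmp7 lies between 0.42 and 0.49. Bmpr2 goes from 0.33 to 0.05 with the length correction, and Bambi from −0.04 to 0.21 without control library 1.

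Of the receptor-activated Smads, Smad1 had nearly equal mean levels in both groups. Smad1 (chromosome 8, 79338395 to 79399518, minus strand) had normalised counts of 9318, 9422 and 9164 in the controls and 10099, 8916 and 8907 in the sponge libraries. Sponge 1 was the highest and the other 2 sponge libraries were the lowest. Smad1 had a log2 fold change of −0.00152 ± 0.11 (SE), with an interval from −0.25 to 0.25, the narrowest of the 10 genes.

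Smad5 (ENSMUSG00000021540, chromosome 13, 56703010 to 56742377, plus strand) had 33045, 39652 and 39604 normalised counts in the control libraries and 41118, 40175 and 41876 in the sponge libraries. All sponge values lay above all control values, but control libraries 2 and 3 were close to them and control 1 was low. The log2 fold change was 0.14 ± 0.12 (SE), with an interval from −0.14 to 0.42. It was 0.05 without control library 1 and 0.00698 after the transcript length correction. The ratio of Smad5 to Smad1 per kilobase was 2.31 ± 0.24 in the control and 2.54 ± 0.18 in the sponge libraries (SD, n = 3 each), with overlap. No 50-base word of the longest Smad1 or Smad5 transcript occurs in a transcript of another gene. An exon of Smad5 outside that transcript shares 100 bases with Gm27301 on the same strand.

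Of the inhibitors, Smad6 (chromosome 9, 63953076 to 64022059, minus strand) blocks BMP receptors and Smads from inside the cell and is itself a known target gene of the pathway. It had 596, 522 and 490.4 normalised counts in the control libraries and 691, 552 and 698 in the sponge libraries. Sponge libraries 1 and 3 lay above all controls, while sponge 2 was below control 1, so the groups overlapped. Smad6 had a log2 fold change of 0.27 ± 0.19 (SE), with an interval from −0.17 to 0.71, and 0.35 without control library 1. Its transcript of 2971 bases is short, and the length correction gave 0.29.

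Bambi, a pseudoreceptor without a kinase domain that is also known as a BMP target gene, had 952, 597 and 553 normalised counts in the control libraries and 665, 547 and 801 in the sponge libraries. Control 1 was the highest of the 6, the reverse of its place for Bmpr2, and the groups overlapped throughout. The log2 fold change was −0.04 ± 0.26 (SE), with an interval from −0.64 to 0.57. Leaving out control library 1 gave 0.21, and leaving out sponge library 2 gave 0.10.

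In all, 8 of the 10 genes had a fold change above 0 and 2 below, with a median of 0.27, beside a median of 0.00607 over all tested genes, of which 50.9% were above 0. In 3 of the 10 genes, Bmp7, Bmpr1b and Smad5, every sponge library lay above every control library, as in 6.17% of tested genes, and in 0 it lay below, as in 5.04%. Since the genes were chosen with these fold changes known, the counts describe them and nothing is read from the comparison with the background. The median was 0.22 without control library 1 and 0.15 after the transcript length correction. The 4 genes with a full seed match had fold changes from −0.04 to 0.33, and the 6 without one, which include Bmpr1b with its weaker form, from −0.00152 to 0.70.

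**Figure D3:**
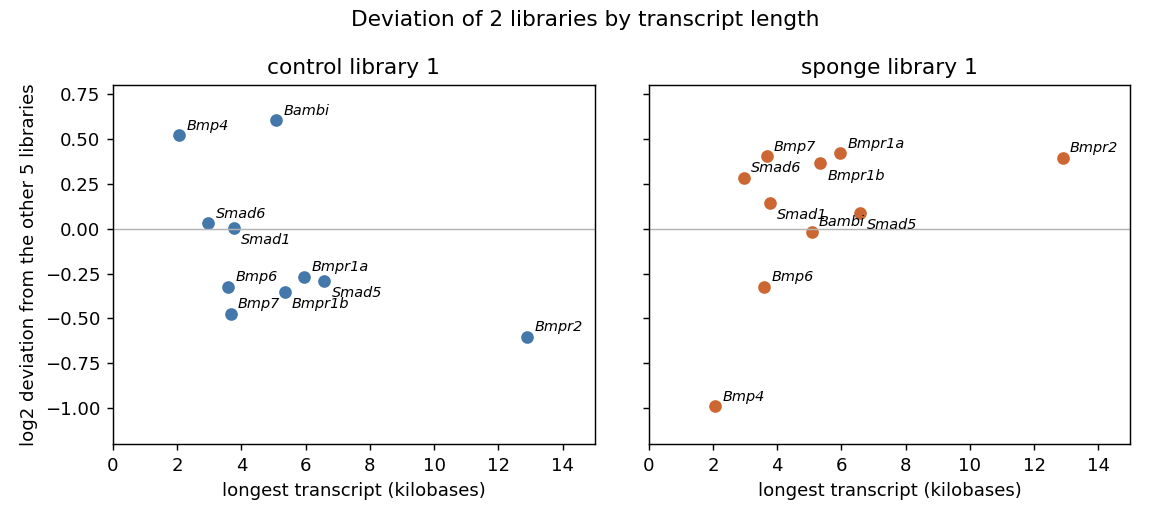
Log2 deviation of control library 1 (left) and sponge library 1 (right) from the mean of the other 5 libraries for each of the 10 genes, against the length of the longest transcript in kilobases. In control 1, Bmpr2, the longest at 12899 bases, deviates by −0.60, and Bambi by 0.60; in sponge 1, Bmpr1a, Bmp7 and Bmpr2 deviate by 0.42, 0.40 and 0.39.

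In control 1, 4 of the 10 genes lay above their own mean over the libraries, and in sponge 3, 9 of them did. The median deviation of the 10 genes from their own means was −0.23, −0.00154 and −0.12 in control libraries 1 to 3. It was 0.18, 0.04 and 0.19 in sponge libraries 1 to 3. Sponge 1 was the highest library for Bmp7, Bmpr1a, Bmpr1b, Bmpr2 and Smad1, but lowest or next to lowest for Bmp6 and Bmp4.

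The other genes of the pathway were taken as 50 genes listed by role, of which 46 passed the filter. With limma and Benjamini-Hochberg adjustment over all tested genes, 0 of the 46 were called higher and 0 lower. Adjusted p-values from limma started at 0.925 among them. The 1 gene with an unadjusted p under 0.05 was Chrdl1, an extracellular BMP antagonist, named after its values were seen. Over all tested genes 1.58% were higher and 1.31% lower at that limma threshold. Chrdl1 had 1710.4, 2113 and 1977 normalised counts in the controls and 2426, 2551 and 2696 in the sponge libraries, with no overlap and a log2 fold change of 0.41 ± 0.14 (SE). Of the 46 genes, 28 had a fold change above 0 and 18 below, with a median of 0.05. In 2 of the 46, Chrdl1 and Smad4, every sponge library lay above every control library, as in 6.17% of tested genes. In 0 of the 46 every sponge library lay below, as in 5.04%. Nothing is read from these counts.

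Among the other ligands, 6 of 10 passed the filter, 3 with a fold change above 0 and 3 below. Highest by normalised count, not corrected for length, were Bmp8b (log2 fold change −0.22 ± 0.26, SE) and Bmp3 (0.27 ± 0.32). Without control library 1 these were 0.06 and 0.03. Bmp8a, Bmp10, Gdf2 and Gdf6 had means below 10 and were not tested. All other Bmp and Gdf ligands listed were at 239.6 normalised counts per kilobase or less on average, below Bmp7. The highest of them per kilobase, Bmp8b, lay above Bmp6 at 142 and Bmp4 at 13.8.

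Among 8 other receptors and co-receptors, 4 had a fold change above 0 and 4 below. The co-receptor Rgma, a repulsive guidance molecule that binds BMPs, had 0.18 ± 0.13, and its receptor Neo1 had 0.14 ± 0.17 (SE), which became −0.01 after the transcript length correction. The common partner Smad4 had 0.25 ± 0.18 (SE), with every sponge library above every control library. Its value was 0.05 without control library 1, where Smad4 measured 11286 normalised counts, against 16751 to 17868.5 in the other 5 libraries. The inhibitory Smad7 had 0.03 ± 0.19 (SE), which became −0.07 without control library 1.

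Among 13 extracellular antagonists and modulators, 9 had a fold change above 0 and 4 below. Highest by normalised count, the follistatin-like Fstl1 and the protease Bmp1, which cleaves the antagonist chordin, had 0.05 ± 0.18 and 0.02 ± 0.16 (SE). Among 8 intracellular regulators 6 were above 0 and 2 below. The Smad co-repressor Ski had 0.04 ± 0.12 and the phosphatase Ppm1a −0.05 ± 0.10 (SE).

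BMP target genes, the readout downstream of the Smads, had 3 of 8 fold changes above 0 and 5 below, with a median of −0.04. Highest by normalised count were Id2, an inhibitor of basic helix-loop-helix factors, with 28474 ± 10190 normalised counts in the control and 26578 ± 3718 in the sponge libraries (SD, n = 3 each), and Id4 with 20834 ± 1634 and 21025 ± 1440.2. Their log2 fold changes were −0.05 ± 0.24 and 0.01 ± 0.12 (SE). Control 1 had the highest Id2 of the 6 libraries, at 40034 normalised counts, and without it the value for Id2 was 0.22 and that for Id4 0.05. Id1, Id3 and Msx1, also below 0, were likewise highest in control 1, at 7035, 12037 and 206 normalised counts. Msx2, also below 0, was highest in sponge 1, at 47.3, and its highest control was control 1, at 38.0. The count of signs and the median of the target genes therefore depend on control 1. In none of the 8 target genes did all sponge libraries lie on one side of all controls. Over all tested genes 6.17% lay above and 5.04% below in this way, so nothing is read from this count.

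**Figure D4:**
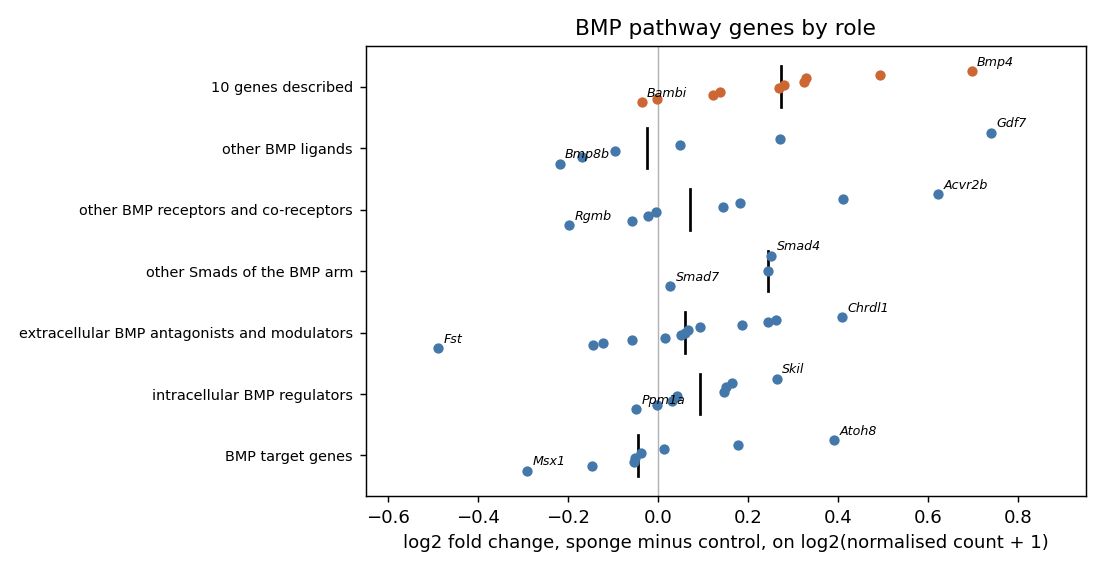
Log2 fold change, sponge minus control, on log2(normalised count + 1), of the 10 genes (orange) and of the 46 other tested BMP pathway genes (blue) by role; each point is a gene, black bars are medians, and the outermost genes are named. The median is 0.27 for the 10 genes and −0.04 for the target genes, and 0 of these genes was called by limma after adjustment. All libraries are included. The target genes Id1, Id2, Id3 and Msx1 were highest in control 1, so the median of the target genes depends on that library.

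Markers of cortical neurons, the cells named in the labels, were present, and so were markers of other cells, some at higher levels. Per kilobase, the progenitor marker Fabp7 had a mean of 233416 normalised counts, above the neuronal Tubb3 at 81289. The libraries therefore held RNA of progenitors and glia as well as of neurons. The 10 excitatory neuron markers summed to 495047 to 522361 normalised counts in the control and 483637 to 491218 in the sponge libraries, so every sponge library lay below every control library in the sum. Of these markers 5 had a fold change above 0 and 5 below, and the most abundant, Tubb3, overlapped between the groups. Tubb3 had 207104 normalised counts in control 1, against 126803 to 157923 in the other libraries, and weighs heavily in the sum. No sum was taken without it, so the order of the sums is not read as a change in these markers. Without overlap between the groups, 1 marker, Map2, was higher in the sponge libraries and 1, Neurod2, was lower. Astrocyte markers (7 genes) summed to 208919 to 262430 and 244849 to 323920, and radial glia and progenitor markers (7 genes) to 303281 to 472526 and 308845 to 391139, so these sums overlapped. Of the astrocyte markers 6 had a fold change above 0 and 1 below, and Aqp4 (0.81) and Slc1a3 (0.33), named after their values were seen, were higher in every sponge library than in any control. Markers of oligodendrocyte precursors summed to 86744 to 107843 in the control and 114836 to 129647 in the sponge libraries, without overlap. Of these markers 6 of 6 had a fold change above 0, 5 of them without overlap between the groups. Over all tested genes 50.9% had a fold change above 0, and in 6.17% every sponge library lay above every control library. The part of the oligodendrocyte precursor and astrocyte markers in the values of Bmp7, Bmpr1b and the other genes described was not tested. In bulk samples, fewer cells of a type and less RNA per cell cannot be told apart.

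Meninges and choroid plexus, known sources of BMP ligands, were represented at low levels. The 7 meningeal markers summed to 1589 to 2165 normalised counts in the control and 1468 to 2627 in the sponge libraries, highest in sponge 1, and Slc6a13, Dcn and Lum were each at 0 in at least 1 library. The 6 choroid plexus markers summed to 241 to 3499 and 242 to 8864. Almost all of the spread was transthyretin (Ttr), with 3181 in control 2, 8241 in sponge 1, 2476 in sponge 2 and 8.09 or less in the other 3. Sponge 1 was the highest library for Ttr and for Bmp7, and control 2 was the highest control for both. Sponge 3, with Ttr at 5.30, had 2596 normalised counts of Bmp7, above control 2 at 2101. The part of choroid plexus or meningeal cells in the Bmp7 values was not tested. Endothelial and pericyte markers (7 genes) summed to 8492 to 13212 and 8551 to 12984. Microglial markers (7 genes) summed to 1700 to 4019 and 1718 to 2212, and erythroid markers (6 genes) to 1444 to 32226 and 3090 to 4236, both highest in control 1. Interneuron markers (7 genes) summed to 51308 to 73028 and 38939 to 74342, with 7 of 7 fold changes below 0 and a median of −0.24. Over all tested genes 50.9% of fold changes were above 0.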

How the data were processed

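Messenger RNA was sequenced from 3 control and 3 sponge libraries, made from 50 ng of total RNA each with a stranded ligation kit, per the labels. Per the submitters' processing notes, tools included STAR 2.7.6a and DESeq2 1.30.1 on mm10/GRCm38. No source used here names the annotation or the read counter. The deposited signal is a normalised count per gene and library, that is, counts the authors divided by 1 factor per library. All values in a column are whole multiples of a common step (largest gap 9.546e-09), and sums of these multiples serve as an estimate of depth, since they were not shown to be read counts. A second deposited table holds the authors' log2 fold change, p-value and adjusted p-value for 10812 genes with a mean of at least 1003.

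Tests used limma 3.58.1 (R 4.3.3) on log2(value + 1) (trend, robust empirical Bayes, two-sided, Benjamini-Hochberg over 22479 genes with a mean of at least 10, threshold 0.05). The fit was tested on simulated data. The transcript length correction removes from each library a lowess trend of the log2 deviation on log2 length. Lengths, positions and 3′ UTRs come from GENCODE M21 on GRCm38, which held 35389 of the 35510 identifiers. The microRNA sequences come from RefSeq. With 3 against 3 libraries an exact permutation test cannot go below 0.1, and none was used.

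The members, the pathway list and the marker lists were chosen with earlier results of these data known. Named genes are the 10 members, the up to 2 most abundant tested genes of each role, and the 3 genes most correlated with Bmpr2, passing over predicted genes, Rik symbols and "-ps" symbols.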

Additional observations from a re-analysis of the deposited data

How the results depend on the processing

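Limits: 3 pooled libraries per group, a control library that stands apart by transcript length, and a median half-width of the 95% interval of 0.56 on the log2 scale, which leaves small differences undetectable at this depth and number of libraries. In 17 alternative settings limma called 0 of the 10 genes and 0 of the 46 other tested pathway genes; the lowest adjusted p was 0.371 over the former and, over the 12 named genes of the latter, 0.600. Over all tested genes the count was 4 with array quality weights, and 0 to 2 when 1 library was left out (2 without control library 1). The median fold change of the 10 genes was 0.13 with array quality weights, 0.15 with the transcript length correction and 0.15 with replicate block and length correction together; leaving out 1 library gave 0.22 to 0.35. For the other pathway genes this range was 0.0249 to 0.0971, with the highest without control library 1. The cause was not tested. No pairing by replicate number was seen: deviations of same-numbered libraries correlated at 0.00957, 0.00544 and −0.0532 across genes. All pairs of a control and a sponge library spanned −0.0539 to 0.0711. With deviations from means of 3 libraries, this check cannot exclude pairing. The replicate block alone left the counts of calls at 0 and the medians at 0.27 and 0.0453.

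Signs turned in 8 of 169 values of the 10 genes and in 31 of 204 of the named pathway genes. Smad1 had 0.00162 with equal library totals, and Bambi 0.14 with array quality weights. With array quality weights Bmp3 had −0.11, Neo1 −0.0443, Bmp1 −0.0499, Ski −0.0456 and Id2 0.0739. With the length correction, with or without the block, Neo1 had −0.0123, Smad7 −0.000925, Bmp1 −0.0651, Ski −0.0463 and Id2 0.0210. With trimmed mean of M-values factors Bmp1 had −0.00150 and Id4 −0.00362. Leaving out 1 library gave −0.0519 to 0.29 for Bmp6, −0.0617 to 0.0289 for Smad1, −0.19 to 0.21 for Bambi, −0.44 to 0.0608 for Bmp8b, 0.0270 to 0.47 for Bmp3, −0.12 to 0.15 for Smad7, −0.0536 to 0.20 for Fstl1, −0.11 to 0.15 for Bmp1, −0.0189 to 0.0833 for Ski, −0.25 to 0.22 for Id2 and −0.0525 to 0.0533 for Id4. Bmp7, Bmpr1a, Bmpr1b, Bmpr2, Smad5 and Smad6 kept their sign in every setting run. With array quality weights they had 0.36, 0.12, 0.19, 0.12, 0.06 and 0.29, and Bmp4 had 1.93. The highest value of Bmp7 was 0.57, without control library 2. Levels per kilobase over the union of all annotated exons moved by more than the spread between libraries for Smad1 (1486), Bmpr2 (1422) and Smad5 (5289). The search of all annotated 3′ UTRs found the same 4 genes with a seed match. Tests on counts of reads were not run.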
